A study of Mus musculus with 6 samples.

Results

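Hepatocyte genes that encode plasma proteins and the zoned enzymes of the liver were followed through 6 bulk RNA-seq libraries of whole mouse adrenal gland. The 36 genes, of 54532 in the count table, were chosen by their measured counts, which were high in WT replicate 3 and traceable in VEGF/LysM replicate 3. A further listed name, Cyp2f2-none, belongs to no gene and was left out of the 37 names. The series compared glands labelled WT with glands labelled VEGF/LysM, 3 samples each, to ask how macrophage VEGF-A bears on the gland as a whole. The labels give no allele, driver line, strain, age or sex for either group, and do not say whether replicates came from separate animals. The p values below therefore rest on a spread between samples that could be purely technical. The libraries held 16476879 to 18671950 counts, so that 3 counts correspond to 0.161 to 0.182 CPM (counts scaled to a common library total). Markers of the labelled tissue were present in all 6 libraries: 8 adrenal cortex genes summed to 44884 to 55041 CPM in 5 libraries and to 21933 CPM in WT replicate 3. The 6 medulla genes summed to 5654 to 9730 CPM in the same 5 libraries and to 2940 CPM in WT replicate 3. In a bulk sample, fewer cells of a type and less RNA per cell cannot be told apart.

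Hepatocytes secrete most of the proteins of blood plasma, among them albumin, the apolipoproteins, the clotting factors and the inhibitors that restrain proteases. They also divide their metabolism along the lobule. Cells near the portal vein make urea and break down amino acids, and cells near the central vein make glutamine and carry the cytochrome P450 enzymes that oxidise drugs. Some of these genes are transcribed outside the liver as well, so that not every transcript of the list needs to come from a hepatocyte.

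All 36 genes had their highest CPM in WT replicate 3, where together they took 9.24% of the counts. They took 0.167% and 0.178% in WT replicates 1 and 2, 0.164% and 0.174% in VEGF/LysM replicates 1 and 2, and 0.236% in VEGF/LysM replicate 3. These values chose the genes and are given as a description. In 33 of the 36 genes VEGF/LysM replicate 3 also lay above the highest of the other 4 libraries, the exceptions being Hp, Glul and Oat. The margin was within counting error in Trf (26.0 against 25.3 CPM) and Ass1 (13.7 against 12.96 CPM). It was also within counting error in Hal (0.607 against 0.378 CPM), which had 10 counts in VEGF/LysM replicate 3. How many of all genes had this order was not counted. Each of the 36 genes had counts in WT replicate 3 and VEGF/LysM replicate 3, against 20 to 25 genes in each of the other 4 libraries. Of the 100 genes with the most counts in WT replicate 3, 23 were members. In every other library 1 member was among the top 100.

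**Figure D1:**
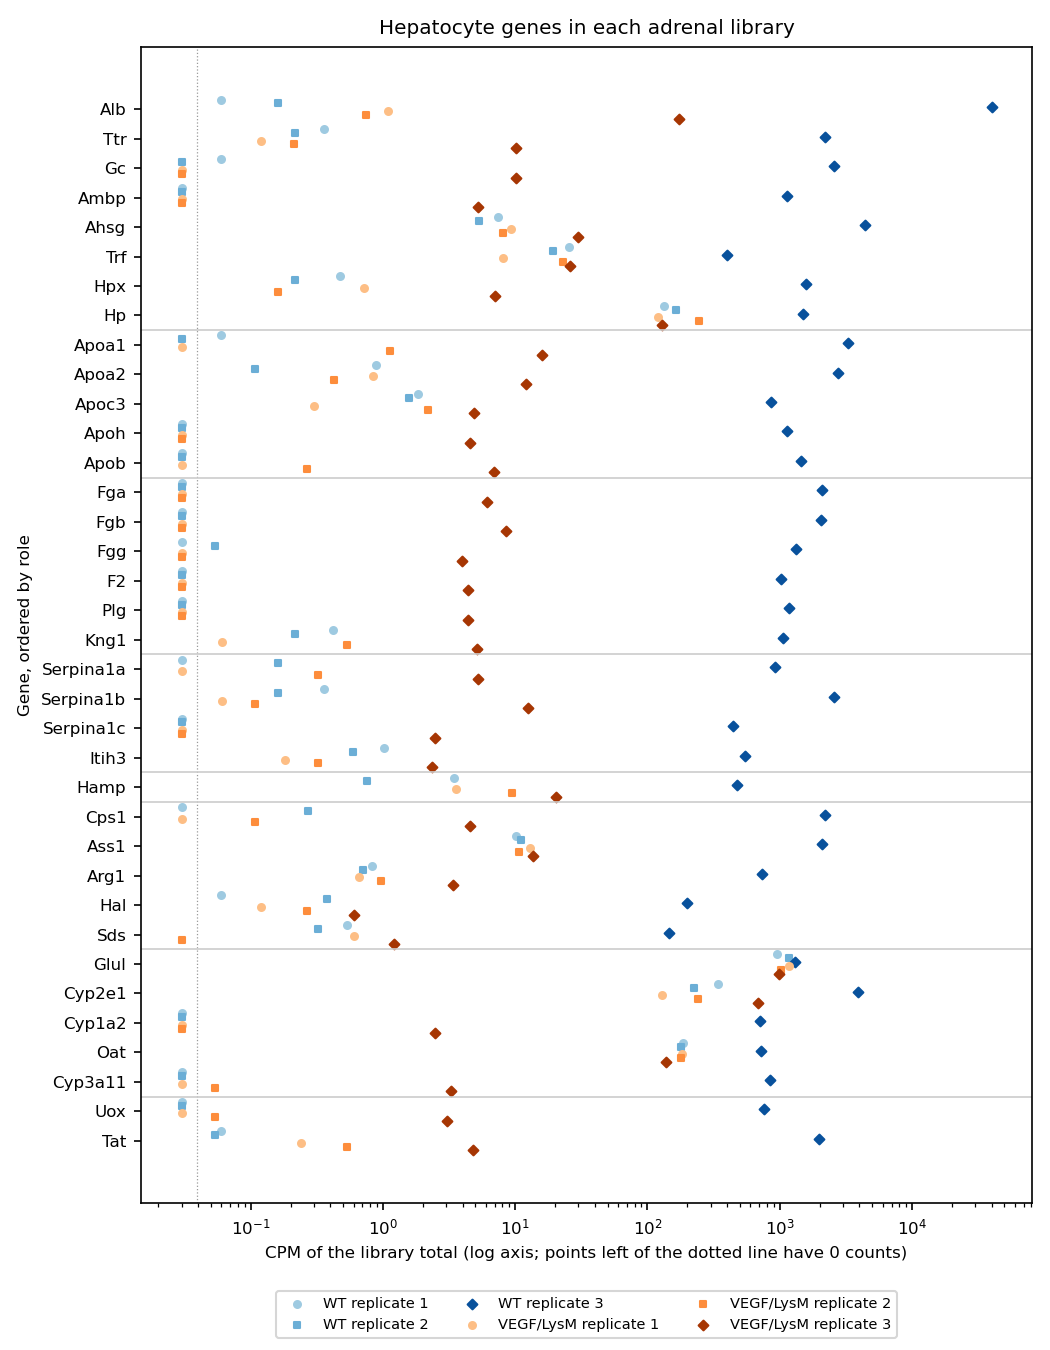
CPM of the library total (log axis) for 36 hepatocyte genes, 1 row per gene ordered by role, with 1 point per library and no error bars. The dark blue diamonds of WT replicate 3 are the highest point in every row. In Glul all 6 libraries lie between 961 and 1305 CPM.

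Carrier and binding proteins held 930363 of the 1600987 member counts of WT replicate 3. In every other library most member counts came from the pericentral enzymes. Alb encodes albumin, the main carrier of plasma (ENSMUSG00000029368, chromosome 5, 90460897 to 90476602, GRCm38). It had 691864 counts in WT replicate 3 and 2869 in VEGF/LysM replicate 3, against 1 and 3 counts in WT replicates 1 and 2 and 18 and 14 in VEGF/LysM replicates 1 and 2. Ttr, which carries thyroid hormone and retinol-binding protein, had 38018 and 168 counts in the replicates 3 of WT and VEGF/LysM and 2 to 6 elsewhere. Gc, the vitamin D-binding protein, had 44465 and 167 counts there and 1 count over the other 4 libraries together. Ambp, the precursor of alpha-1-microglobulin and bikunin, had 19533 and 86 counts there but was at 0 elsewhere, at least 6230-fold higher in WT replicate 3 than 3 counts per library allow. Hpx, the haem scavenger hemopexin, had 27290 and 116 counts there and 3 to 12 elsewhere. Each of these 5 genes was thus high in the same pair of libraries and near 0 in the other 4.

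The apolipoproteins followed the same order of libraries. Apoa1 and Apoa2, the main proteins of high-density lipoprotein, had 56689 and 47949 counts in WT replicate 3 and 262 and 200 in VEGF/LysM replicate 3. Apob, the scaffold of very-low-density lipoprotein, had 25004 and 114 counts in these libraries, 5 in VEGF/LysM replicate 2 and none in the remaining 3. Apoh, a phospholipid-binding glycoprotein, had 19541 and 75 counts and 0 in the other 4 libraries. Apoc3, an inhibitor of lipoprotein lipase, had 14798 and 80 counts, 31 and 29 in WT replicates 1 and 2 and 5 and 41 in VEGF/LysM replicates 1 and 2. Apoa1 had 0 to 21 counts and Apoa2 2 to 15 in these 4 libraries. Per kilobase of transcript, Apoa2 was second only to Alb among members in WT replicate 3 (99686 and 340149 counts per kilobase).

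Clotting genes gave the cleanest split between libraries. The 3 fibrinogen chains Fga, Fgb and Fgg had 36269, 35293 and 22951 counts in WT replicate 3 and 100, 140 and 65 counts in VEGF/LysM replicate 3. Fga and Fgb had 0 counts in the other 4 libraries and Fgg had 1, so that Fga was at least 11569-fold higher in WT replicate 3 than 3 counts per library allow. F2, which encodes prothrombin, had 17704 and 73 counts, and Plg, which encodes plasminogen, the precursor of the protease that dissolves fibrin, had 20308 and 72. Both were at 0 in the other 4 libraries. Kng1, a kininogen, had 18297 and 85 counts and 1 to 10 elsewhere.

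Among the protease inhibitors, Serpina1a, Serpina1b and Serpina1c are close copies of the gene for alpha-1-antitrypsin, and how reads were divided between copies is uncertain. They had 16046, 44382 and 7706 counts in WT replicate 3 and 86, 206 and 41 in VEGF/LysM replicate 3, with 0 to 6 counts in any other library. Serpina1d and Serpina1e, further copies that are not members, had 22495 and 11602 counts in WT replicate 3 and 74 and 191 in VEGF/LysM replicate 3. Serpina1d was named after its values were seen. Serpina1e thus took 11.3% of the counts of the 5 copies in WT replicate 3 and 31.9% in VEGF/LysM replicate 3. Itih3, a heavy chain of the inter-alpha-inhibitor family, had 9482 and 39 counts, and 17, 11, 3 and 6 in WT replicates 1 and 2 and VEGF/LysM replicates 1 and 2.

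The start regions of these genes are shown because 28 of the promoter windows matched to 27 members could be read for letters that liver factors bind. The TATA box, TATAAA, was read beside those letters and is not particular to liver. Each window is the 250 bases before a RefSeq start on GRCm38.p6, and a match on either strand counts. The half-site of HNF1, GTTAAT, was in 7 of 28 member windows (25.0%) and in 6.43% of all 32851 windows. The 7 were Alb, Fga, Fgb, Gc, Serpina1a, Serpina1b and Serpina1c, the last 3 of which share sequence. None of the 5 windows of members that were also present in the other 4 libraries held it. With 6.43% of all windows holding it, 5 windows are too few to set these members apart. A C/EBP-type sequence, TTGCNNAA, was in 10 member windows (35.7%, against 9.56% of all), TATAAA in 6 (21.4%, against 12.4%), the forkhead-type TGTTTAC in 3 (10.7%, against 3.17%) and the HNF4-type CAAAGTCC in 1 (3.57%, against 1.2%). Of the 5 windows of members present in the other 4 libraries, 1 held the C/EBP-type sequence, 1 held TATAAA and none the forkhead-type or HNF4-type. These are matches of letters, with no measurement of binding. In the 4 windows that follow, from Alb (chr5:90460620-90460869, plus strand), Fga (chr3:83025903-83026152, plus strand), Serpina1b (chr12:103738190-103738439, minus strand) and Glul (chr1:153899679-153899928, plus strand), capitals mark GTTAAT or its reverse complement. The first capital lies 32, 43 and 26 bases before the start in Alb, Fga and Serpina1b. The window of Glul, a gene with counts in every library, has no match, like most of the 32851 windows.
Alb: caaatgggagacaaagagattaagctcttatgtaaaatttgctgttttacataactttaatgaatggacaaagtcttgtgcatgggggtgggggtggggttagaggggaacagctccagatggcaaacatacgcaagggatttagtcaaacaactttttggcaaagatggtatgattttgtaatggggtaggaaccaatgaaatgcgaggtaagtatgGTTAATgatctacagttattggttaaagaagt
Fga: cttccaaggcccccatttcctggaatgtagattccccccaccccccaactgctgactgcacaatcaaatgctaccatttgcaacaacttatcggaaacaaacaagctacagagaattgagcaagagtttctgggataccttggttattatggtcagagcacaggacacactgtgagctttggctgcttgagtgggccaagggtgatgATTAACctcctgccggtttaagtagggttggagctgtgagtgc
Serpina1b: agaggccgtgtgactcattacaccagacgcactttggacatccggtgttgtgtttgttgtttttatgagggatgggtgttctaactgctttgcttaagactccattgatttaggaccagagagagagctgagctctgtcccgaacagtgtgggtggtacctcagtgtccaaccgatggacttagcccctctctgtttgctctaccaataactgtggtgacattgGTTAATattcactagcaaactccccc
Glul: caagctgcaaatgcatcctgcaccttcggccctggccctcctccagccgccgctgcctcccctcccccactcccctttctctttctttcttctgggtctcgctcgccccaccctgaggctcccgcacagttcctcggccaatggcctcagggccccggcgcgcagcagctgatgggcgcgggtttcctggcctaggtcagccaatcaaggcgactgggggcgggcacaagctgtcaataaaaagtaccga

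Enzymes of both lobular zones were represented in WT replicate 3. Of the periportal enzymes, Cps1, which makes carbamoyl phosphate for the urea cycle (ENSMUSG00000025991, chromosome 1, 67123026 to 67231259), had 38443 and 75 counts in the replicates 3 of WT and VEGF/LysM and 0 to 5 elsewhere. Arg1, the arginase that releases urea, had 12653 and 56 counts there and 11 to 18 elsewhere. Hal and Sds, which break down histidine and serine, had 3442 and 2527 counts in WT replicate 3. The corresponding VEGF/LysM library had 10 and 20 counts, against 1 to 7 and 0 to 10 in the other 4 libraries, so neither stood far above them. Of the pericentral enzymes, Cyp1a2 and Cyp3a11, P450 enzymes of drug metabolism, had 12389 and 14555 counts in WT replicate 3 and 41 and 54 in VEGF/LysM replicate 3. In the other 4 libraries Cyp1a2 was at 0 and Cyp3a11 had 1 count in all. Tat and Uox, which degrade tyrosine and urate and were given no zone, had 34339 and 13246 counts in WT replicate 3 and 79 and 50 in VEGF/LysM replicate 3.

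The share of pericentral counts was compared between the replicates 3 of WT and VEGF/LysM. Over the 2 pericentral and 4 periportal members that were not present in the other 4 libraries, pericentral counts made up 32.1% in WT replicate 3 (95% exact binomial interval 31.8% to 32.4%). In VEGF/LysM replicate 3 the share was 37.1% (31.2% to 43.3%), an interval that holds the value of WT replicate 3. The 4 periportal genes had 161 counts there and 23 to 31 in the other 4 libraries. With the mean CPM of those 4 libraries subtracted, an alternative added after the data were seen, the shares were 32.1% and 40.9%. Cps1 gave 38443 of the 57065 periportal counts in WT replicate 3 and 75 of the 161 in VEGF/LysM replicate 3. Intervals here and below cover counting error only, as reads from PCR without molecular identifiers are not independent molecules. With the further zoned genes of a longer list added, 12 pericentral and 14 periportal genes, the shares were 39.9% and 38.5%. The share therefore depends on which genes stand for a zone, and per kilobase it was 41.0% and 38.9% for the 6 members. With the longer list and per kilobase the share in VEGF/LysM replicate 3 was the lower of the pair, the reverse of the 6 members by counts.

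The other 4 libraries, in which Alb was near 0, still held counts of some members. A member was called present there at 1 CPM or more in each of WT replicates 1 and 2 and VEGF/LysM replicates 1 and 2, and 7 of 36 were: Glul, Oat, Hp, Cyp2e1, Trf, Ass1 and Ahsg. The lowest of these was Ahsg, whose lowest library read 5.29 CPM, and the nearest below the limit were Hamp and Arg1, whose lowest libraries read 0.756 and 0.663 CPM. Alb itself gave 36 counts over these 4 libraries. Had the members stood to Alb as they did in WT replicate 3, Glul would have had 1.18 counts there and had 76318, and Ahsg would have had 3.96 and had 527. Per kilobase Glul was highest, at 344 to 421 CPM per kilobase, followed by Hp (89.5 to 181), Cyp2e1 (80.8 to 216) and Oat (82.9 to 85.6), whose ranges overlap. Trf (3.31 to 10.3), Ass1 (6.02 to 7.64) and Ahsg (3.91 to 6.91) formed a lower set whose ranges also overlap.

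**Figure D2:**
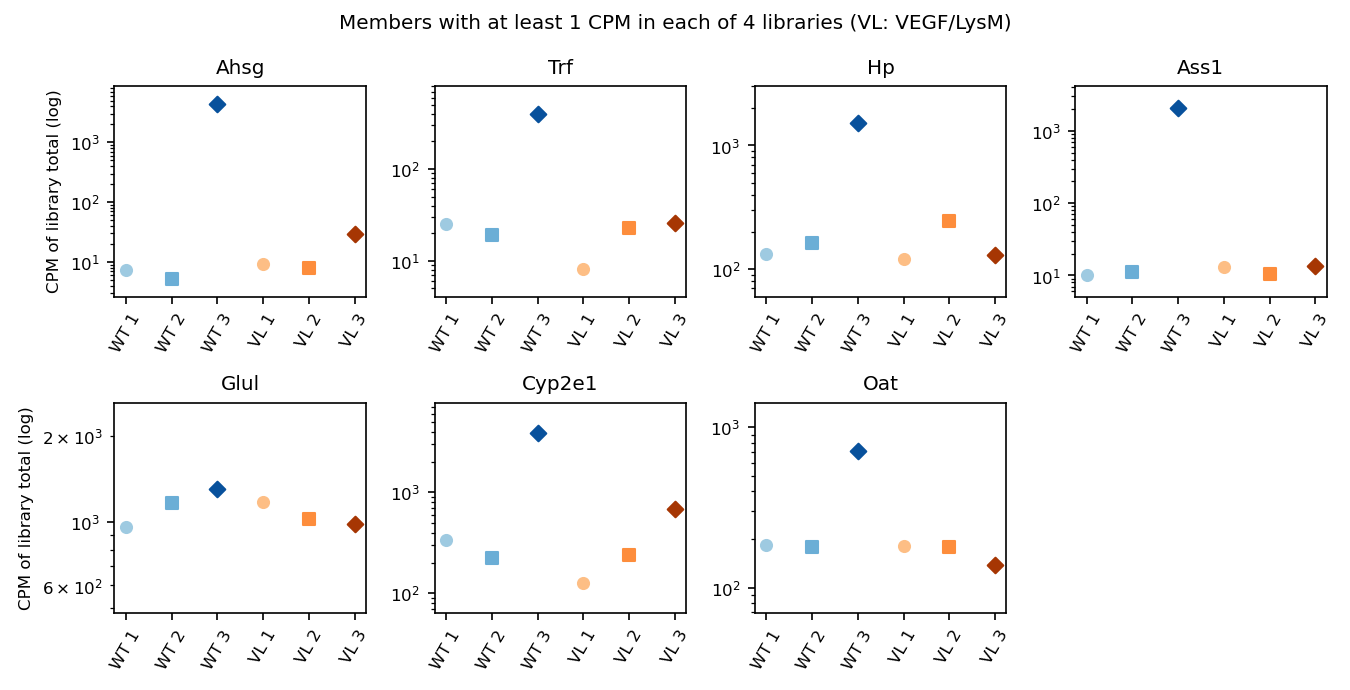
CPM of the library total (log axis) in each library for the 7 members present in the other 4 libraries, 1 panel per gene with its own scale and no error bars. WT replicate 3 is the top point in each panel, by a wide margin in Ahsg and Ass1 and a narrow one in Glul.

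Glul, glutamine synthetase, read 961 and 1166 CPM in the WT replicates 1 and 2, against 1174 and 1020 CPM in their VEGF/LysM counterparts. WT replicate 3 read 1305 CPM and VEGF/LysM replicate 3 read 980 CPM, the former just above and the latter within the range of the other 4 libraries. Oat, ornithine aminotransferase, read 184, 179, 182 and 178 CPM in the same 4 libraries, 715 CPM in WT replicate 3 and 139 CPM in VEGF/LysM replicate 3, the lowest of all. Ass1, a urea cycle enzyme that also recycles citrulline to arginine in other tissues, read 10.2, 11.1, 12.96 and 10.6 CPM, 2086 in WT replicate 3 and 13.7 in VEGF/LysM replicate 3. The 4 libraries thus lay close together in Oat and Ass1, and WT replicate 3 stood above them in both.

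Hp, haptoglobin, which binds free haemoglobin, read 133 and 164 CPM in WT replicates 1 and 2, 120 and 243 CPM in VEGF/LysM replicates 1 and 2, 1511 in WT replicate 3 and 130 in VEGF/LysM replicate 3. Cyp2e1, a P450 enzyme that oxidises ethanol (ENSMUSG00000025479, chromosome 7, 140763739 to 140774987), read 342 and 225, 128 and 240, 3877 and 689 CPM in the same order. Cyp2e1 in VEGF/LysM replicate 3 was thus above all of the other 4 libraries. Its ratio to Alb was 40.7 times that in WT replicate 3, but counts seen where Alb was near 0 raise this ratio in any case. In Oat, which was lowest in VEGF/LysM replicate 3, it was 44.5 times. Hp and Cyp2e1 are also known from adipocytes. The 8 adipocyte markers, a list written after the values were seen, summed to 5612 and 5629 CPM in WT replicates 1 and 2, 2781 and 6248 CPM in VEGF/LysM replicates 1 and 2, 3976 in WT replicate 3 and 6028 in VEGF/LysM replicate 3. VEGF/LysM replicate 1 was the lowest of the 6 for the marker sum, Hp and Cyp2e1, and no marker was at 0 in any library. Cfd, the most counted marker in most libraries, read 519 CPM there and 1042 to 2972 elsewhere. Car3 (1210 CPM), Cidec (251) and Retn (73.2) were also lowest of the 6 there, though Cidec and Retn were close to WT replicate 3 (265 and 73.6). Lep was highest of the 6 there (57.3 CPM), and Adipoq (228), Plin1 (288) and Ucp1 (155) lay within the range of the others. The part of adipocyte RNA in these values was not tested.

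Trf, the iron carrier transferrin, read 25.3, 19.3, 8.14 and 22.9 CPM in WT replicates 1 and 2 and VEGF/LysM replicates 1 and 2, 402 in WT replicate 3 and 26.0 in VEGF/LysM replicate 3. Ahsg, fetuin-A, an inhibitor of mineral deposition, read 7.36, 5.29, 9.34 and 8.03 CPM, 4386 and 30.0. Hamp, the iron hormone hepcidin (ENSMUSG00000050440, chromosome 7, 30942368 to 30944032), read 3.44, 0.756, 3.56 and 9.53 CPM, 475 in WT replicate 3 and 20.3 in VEGF/LysM replicate 3. Hamp varied more than 10-fold among the 4 libraries with little Alb, unlike Ass1 or Oat.

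Cyp2f2, the gene that the unmatched name resembles, is a periportal P450 in mouse liver and had counts in every adrenal library. It read 773 and 648 CPM in WT replicates 1 and 2, 704 and 803 CPM in VEGF/LysM replicates 1 and 2, 350 in WT replicate 3 and 1766 in VEGF/LysM replicate 3. It was therefore lowest in the library in which every member was highest.

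Between the groups, no member passed the test. As the choice used the replicates 3, the independent comparison is of replicates 1 and 2 of each group, in which 13 of the 36 genes had enough counts to be tested. edgeR's quasi-likelihood test, adjusted by Benjamini-Hochberg over all 16337 genes, called 0 of the 13 members and 0 genes in all (0%). At an unadjusted p under 0.05 it found 2 members and 378 genes. DESeq2 called 0 members and 11 genes. The median log2 fold change (VEGF/LysM minus WT) was 0.13 over the 13 members and 0.00 over all genes, with 9 members above 0 and 4 below. Alb and Itih3 passed the filter on low counts through 1 group alone, which fixed the direction of their fold changes, so these counts and the median support nothing. The other 23 did not pass the filter on low counts and were not tested here, 8 of them having 0 counts in all 4 libraries.

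Hamp had a log2 fold change of 1.69 ± 0.70 (SE, 2 against 2 samples; edgeR adjusted p = 0.9997, 95% interval 0.07 to 3.31), and both VEGF/LysM values (3.56 and 9.53 CPM) lay above both WT values (3.44 and 0.756 CPM), the nearest pair by little. Without a filter on low counts Hamp was called (edgeR adjusted p = 0.00187), 1 of 124 genes called among 26563. With the filter 0 of 16337 were called. The SE of Hamp was 0.37 without the filter, so the call came with a smaller estimate of the spread between samples. Leaving out 1 library at a time moved its fold change between 0.79 and 3.14. Alb had 2.98 ± 0.78 (edgeR adjusted p = 0.9997), and 2.47 to 3.82 when 1 library was left out. That value came from 4 counts in the WT pair and 32 in the VEGF/LysM pair, a CPM ratio of 8.02 (95% exact interval 2.85 to 31.2, counting error only). Itih3 had -1.59 ± 0.70, and -2.08 to -1.18 when 1 library was left out. The filter on low counts fixed the direction of Alb and Itih3, so their values and ranges support no difference between the groups. Cyp2e1 had -0.58 ± 0.31, with a 95% interval of -1.31 to 0.14, and -1.12 to -0.19 when 1 library was left out. Glul (0.08 ± 0.17) and Oat (0.03 ± 0.14) had the narrowest intervals, -0.32 to 0.48 and -0.29 to 0.34. Trf, Hp, Ahsg, Ass1, Apoa2, Apoc3 and Arg1 lay between -0.48 and 0.49. In the lists of further plasma proteins, periportal and pericentral genes, 18 of 42, 11 of 17 and 7 of 17 genes were tested and 0 passed in either direction.

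Over all 6 libraries 16 members were tested and 0 were called by edgeR, as were 0 of 16300 genes (0%; 459 genes and 7 members at an unadjusted p under 0.05). DESeq2 called 0 genes (542 at an unadjusted p under 0.05), but it gave a p for Glul and Oat alone among the 16 members and none for the other 14. All 16 log2 fold changes were below 0, with a median of -6.84 against 0.00 over all genes. Without WT replicate 3 the median of the 16 was 0.52, with 14 above 0. As the members were chosen for their level in that library, neither direction is a result about the groups.

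The ratio of the 2 libraries with liver transcripts was then taken gene by gene. Alb had 4.15 counts in VEGF/LysM replicate 3 per 1000 in WT replicate 3. The 12 members with at most 3 counts over the other 4 libraries together (Gc, Ambp, Apoh, Fga, Fgb, Fgg, F2, Plg, Serpina1c, Cyp1a2, Cyp3a11 and Uox) ranged from 2.76 to 5.32 per 1000. Pooled, they gave 3.65 per 1000 (95% exact interval 3.42 to 3.89), an interval that lies below the 4.15 of Alb. Relative to Alb, 10 of these 12 had an interval that spanned 1, each gene having only 41 to 167 counts in VEGF/LysM replicate 3. Alb, the reference of the ratios below, thus lay above the pooled value of these genes.

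Cps1 departed furthest downward, with a ratio to Alb in VEGF/LysM replicate 3 that was 0.47 times that in WT replicate 3 (95% exact interval 0.37 to 0.59). Tat (0.55, 0.44 to 0.69), Fga (0.66, 0.54 to 0.81) and Fgg (0.68, 0.53 to 0.87) were also below 1, while Fgb, the third fibrinogen chain, was not (0.96, 0.80 to 1.13). Of the 28 such ratios for members not present in the other 4 libraries, 20 spanned 1, 4 lay below it and 4 above. Those above were Hamp (9.79, 8.70 to 10.99), Sds (1.91, 1.16 to 2.96), Apoc3 (1.3, 1.03 to 1.63) and Serpina1a (1.29, 1.03 to 1.60). Each had counts in some of the 4 libraries, but so had Arg1 (56 over the 4), Apoa2 (39) and Itih3 (37), whose intervals spanned 1. All 7 members present in those libraries were above 1, from 1.51 for Ass1 to 172 for Glul. Their own counts, seen where Alb was near 0, raise this ratio, so the grouping set their side of 1 in advance. These intervals compare 2 libraries, not the groups, and are not adjusted for the 35 ratios taken.

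**Figure D3:**
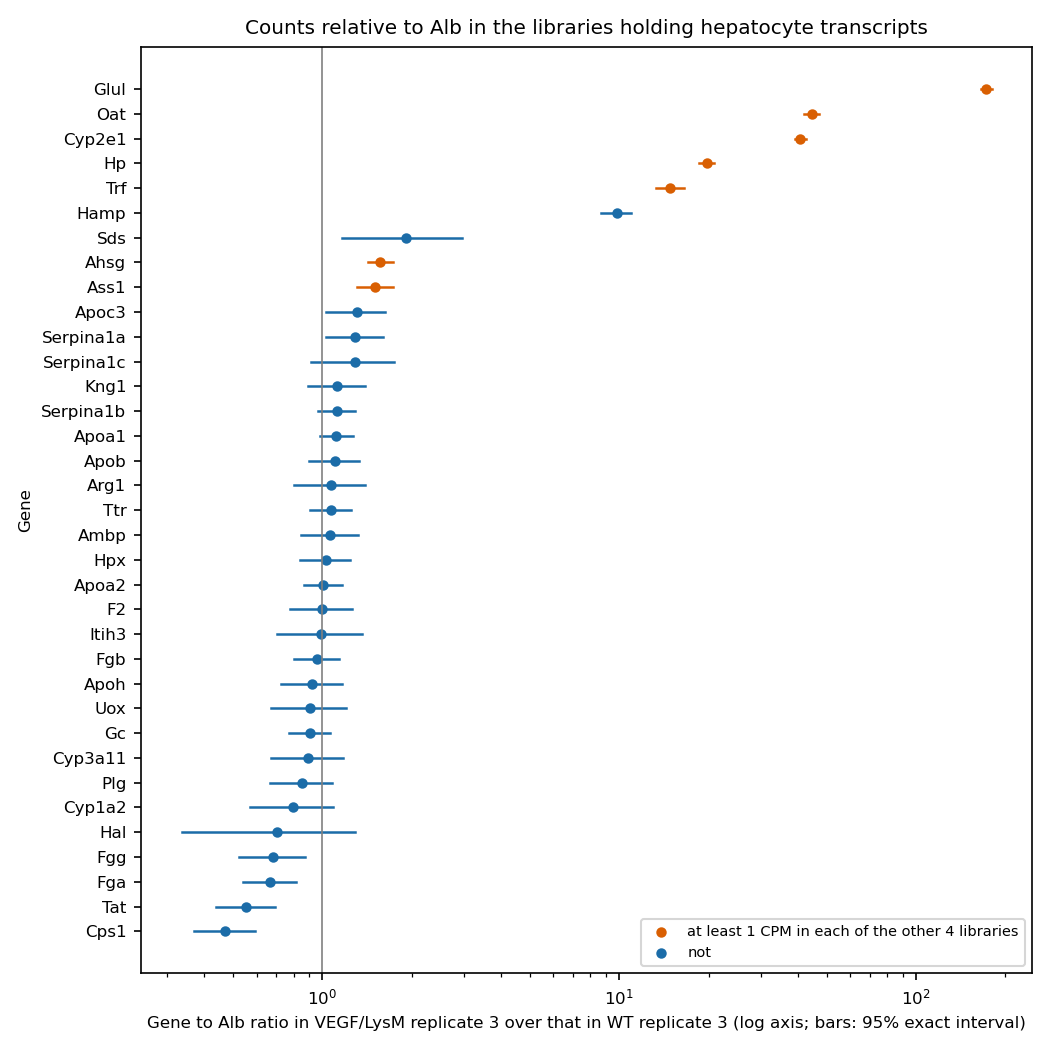
Ratio of each gene's counts to those of Alb in VEGF/LysM replicate 3, divided by the same ratio in WT replicate 3 (log axis), with 95% exact intervals. Most genes not present in the other 4 libraries (blue) lie near 1, Cps1 at 0.47 is lowest, and the genes present there (orange) reach 172. The side of the orange genes was set by how they were grouped.

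Other hepatocyte transcripts accompanied the members, from lists set beside them to describe what else these libraries held. Of 42 further plasma protein genes, 41 had their highest CPM in WT replicate 3, led by Apoe (203722 counts), C3 (120576) and Serpina3k (57558). Apoe and C3 had at least 16852 counts in every library, while Serpina3k had 0 to 23 in the 4 libraries with little Alb and 317 in VEGF/LysM replicate 3. Periportal Pck1, Pigr and Fbp1 had 55153, 16299 and 8381 counts in WT replicate 3, and pericentral Rgn, Cyp2a5 and Cyp2c29 had 11661, 9410 and 8394. Hnf4a, a transcription factor that defines hepatocytes, had 6257 and 16 counts in the replicates 3 of WT and VEGF/LysM and 0 to 2 elsewhere. Cebpa, another, had 3036 to 6114 counts in all 6 libraries. Nr1h4, a bile acid receptor, had 475 to 820. Of the 10 genes with the most counts in WT replicate 3 among those under 1 CPM in each of the 4 libraries, 8 were members, and the others were Pzp (33326 counts) and Ces1c (32052).

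Sex-biased and fetal liver genes were read in the same libraries. Female-biased Cyp2a4, A1bg and Cyp2b9 had 6750, 6125 and 4664 counts in WT replicate 3 and 30, 33 and 7 in VEGF/LysM replicate 3. Of 13 male-biased genes, Serpina1e had the 11602 counts given above, Slco1a1 and Cyp2d9 had 1276 and 636 in WT replicate 3, and Cyp4a12a and Cyp4a12b were at 0 in all 6 libraries. Afp, the fetal albumin homologue, had 42 counts in WT replicate 3, and Gpc3 (513) and H19 (13) were lower there than in the 4 libraries with little Alb. All 11 acute phase genes were highest in WT replicate 3, Itih4, Serpina3n and Orm1 having 21260, 4630 and 4233 counts there, while Saa1 and Saa2, which climb steeply in inflamed liver, had 174 and 74.

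Cells of the liver other than hepatocytes, and other organs, were traced by their own markers. Clec4f, the defining gene of Kupffer cells, had 534 and 3 counts in the replicates 3 of WT and VEGF/LysM and 0 elsewhere. Cd5l and Marco, macrophage genes of the same list, had 496 and 401 counts in WT replicate 3 but 2 each in VEGF/LysM replicate 3, below the 35 to 67 and 8 to 28 of the other 4 libraries. The Kupffer list summed to 100.2 CPM in WT replicate 3 and was lowest in VEGF/LysM replicate 3, at 1.15 CPM against 3.09 to 7.90. Clec4g of sinusoidal endothelium had 456 counts in WT replicate 3, 1 in its VEGF/LysM counterpart and 0 to 2 elsewhere. Of that list Stab2 had 482, 15 and 5 to 35 counts in the same order, and Gpr182 398, 250 and 318 to 327. Lrat of stellate cells had 237 and 2 counts in the replicates 3 and 1 to 5 elsewhere, while Reln, Des and Colec11, the most counted of that list, were present in every library. The bile duct list summed to 28.7 CPM in WT replicate 3, within the range of 28.7 to 44.3 CPM over all libraries, its most counted genes Spp1, Krt7 and Sox9 having 361, 50 and 41 counts there. Kidney tubule genes summed to 599 and 68 counts in the replicates 3 and to 6 to 34 elsewhere. Slc34a1, Miox and Lrp2 led that list, with 214, 103 and 83 counts in WT replicate 3 and 18, 8 and 11 in VEGF/LysM replicate 3. The 8 kidney genes with at most 3 counts over the 4 libraries gave 110 counts in VEGF/LysM replicate 3 per 1000 in WT replicate 3 (95% exact interval 82.3 to 146), against 3.65 for the liver members. Liver and kidney transcripts thus did not stand in the same proportion in these libraries.

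**Figure D4:**
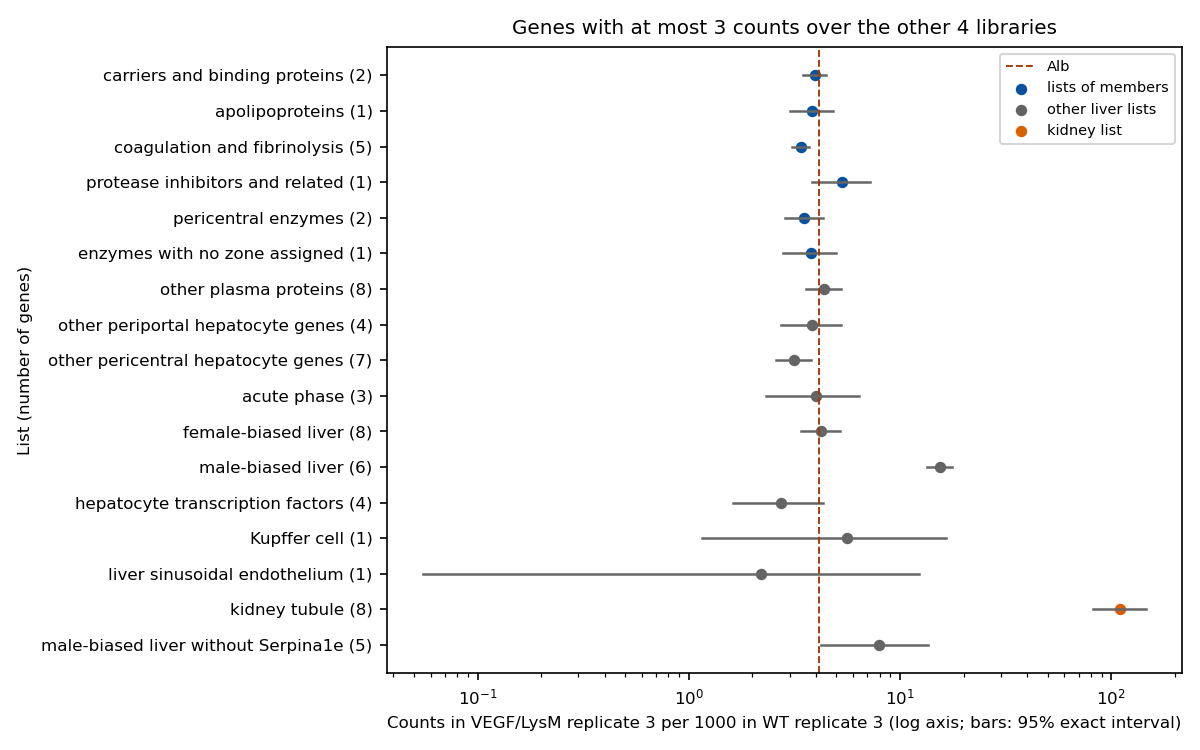
Counts in VEGF/LysM replicate 3 per 1000 counts in WT replicate 3 (log axis), pooled over the genes of each list that had at most 3 counts over the other 4 libraries, with 95% exact intervals and the value of Alb as a dashed line. Lists of members (blue) lie between 3.40 and 5.32, and kidney tubule genes (orange) at 110.

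The male-biased list gave 15.4 per 1000 (13.4 to 17.7), but 191 of its 204 counts in VEGF/LysM replicate 3 were of Serpina1e, a copy with uncertain read division. Without Serpina1e it gave 7.94 (4.22 to 13.6), from 13 counts there, 11 of them of Slco1a1. The female-biased list gave 4.22 (3.39 to 5.19) and the further pericentral genes 3.13 (2.58 to 3.77). The interval without Serpina1e overlaps the former but not the latter. Of the lymphocyte markers, Cd79a, a part of the B cell receptor, had 967 counts in WT replicate 3, 14 in its VEGF/LysM counterpart and 40 to 105 in the other 4 libraries. Cd8a, a T cell co-receptor, had 672 and 61 counts in that pair and 13 to 49 in the other 4. Both were thus highest in the library where the members were highest, and their part in the member values was not tested. Of the gut list, Fabp2, a fatty acid-binding protein, had 234 counts in WT replicate 3, and Cdx2, which defines intestinal cells, had 0, while Lgals4 (204) and Vil1 (12) had counts in every library. VEGF/LysM replicate 2 had 20 counts of Fabp2 and 19 of Muc2, of the same list. WT replicates 1 and 2 and VEGF/LysM replicate 1 had 0 and 0 to 2. Apoa1 had 21 counts in VEGF/LysM replicate 2 and 0 or 1 in those, so the 4 libraries with little Alb were not alike in such traces. The pancreas list had 6 of 9 genes at 0 in WT replicate 3, and its 505 counts there were nearly all Cela1 (498), which had 852 to 1154 counts in the other libraries.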

How the data were processed

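RNA was measured in 6 bulk RNA-seq libraries of whole adrenal gland. Per the labels' protocols, RNA was taken up with a column kit and libraries followed Smart-seq2, which does not mark strand, so reads of overlapping or antisense genes cannot be separated. The deposited values are unnormalised whole-number counts, with a row per gene. The submitters' processing notes name kallisto, DESeq2 1.36.0 and mm10; no source used here gives their roles. Of 54532 gene identifiers, 54409 matched a symbol. CPM are of the library total unless said to be TMM-scaled.

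Tests used edgeR 4.0.16 (R 4.3.3), TMM scaling, filterByExpr (minimum count 10, minimum total count 15), the quasi-likelihood test with group as the only term, and Benjamini-Hochberg adjustment over all genes tested at 0.05. The SE is the fold change divided by the root of the F statistic. The steps were tested on simulated counts. These had large planted changes, the same spread for every gene and no library like WT replicate 3. They therefore do not bear on smaller changes or on the comparison of all libraries. Alternatives were DESeq2 1.42.0, other scalings, no filter, a replicate block and leaving out libraries. Ratios of counts carry exact 95% intervals (scipy 1.17.1). Lengths are medians of basic coding transcripts in GENCODE M21 (GRCm38), and promoter windows are RefSeq's. The rule named all 36 members, the 3 genes of each further list with the most counts in WT replicate 3, and the 10 genes with the most counts there among those under 1 CPM in each of the 4 libraries; adrenal lists are given as sums, and only the leading gene of the pancreas list. Serpina1d, Cyp2f2, Saa1, Saa2, Lrat, Cdx2, Muc2, Cyp4a12a, Cyp4a12b and the adipocyte genes are named outside that rule, chosen after their values were seen. Members and lists were chosen with earlier results of these data known, and the motif letters and adipocyte list after values were seen. No pairing of samples was assumed. A gene of the lymphocyte list, and the sum over that list, are not reported here.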

Additional observations from a re-analysis of the deposited data

How the results depend on the processing

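Between replicates 1 and 2 of each group, 0 members were called by edgeR under DESeq2 size factors, library-size scaling, the DESeq2 test, and in each fit leaving out 1 library. Without a filter 1 was called, Hamp. Over all 6 libraries 0 were called under every alternative run, but with DESeq2 14 of the 16 members had no p and could not be called. With the replicate block 0 members were called in either comparison, and 0 genes in all. Same-numbered samples shared deviations from their group means in 1 of 3 pairs (correlations 0.065, -0.013 and 0.25), so the numbers were not taken to pair them. Over all genes the comparison of replicates 1 and 2 gave 0 calls, against 124 without a filter, 11 with DESeq2 and 3 to 33 when 1 library was left out. Without WT replicate 3 the comparison of all libraries called 1 gene and no member.

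Of 117 refits of member fold changes, 107 kept direction and call, 9 turned and 1 (Hamp without a filter, 1.69) passed. Leaving out 1 library gave -1.43 to 0.08 for Trf, -0.28 to 0.76 for Hp, -0.46 to 2.5 for Apoa2, -2.45 to 0.41 for Apoc3, -0.18 to 0.37 for Arg1 and -0.06 to 0.22 for Glul. It gave 0.27 to 0.74 for Ahsg and 0.037 to 0.30 for Ass1, which did not turn. Turned values were 0.083 (Trf), -0.28 (Hp), -0.46 and -0.15 (Apoa2), 0.41 (Apoc3), -0.18 (Arg1) and -0.062 and -0.014 (Glul). These fits assume that a lone sample varies like the other group. Oat turned to -0.012 with library-size scaling. The cause was not tested.

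Members present in the other 4 libraries numbered 9 at 0.5 CPM (Arg1 and Hamp added), and 7 at 5 CPM, with TMM-scaled CPM, or with a limit against Alb added after the data were seen. The pericentral share in WT replicate 3 was 39.9% with further genes, 41.0% per kilobase and 58.1% with the members present elsewhere kept. Keeping them gave 98.7% in VEGF/LysM replicate 3, since Glul, Oat and Cyp2e1 are counted there. Without Alb the members took 5.24% of WT replicate 3 and 0.218% of VEGF/LysM replicate 3.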
